A study of Mus musculus with 3 samples.

Results

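The genes described are 39 genes of the interferon response and of antigen presentation on MHC class I, chosen by symbol from a list. The list was made with earlier results of these data known, so its counts set against all rows only describe these genes. All 39 are present among the 15554 rows of the expression table. They were measured in NIH3T3 cells, a mouse fibroblast line, which in serum-free medium for 24 h received 100 ng/mL of GDF15 (GDF15), 4 ng/mL of TGF-β (TGF-β) or no stimulation (CTRL). The design sets each cytokine against unstimulated cells and both cytokines against each other. The RNA samples of a treatment were pooled, and 1 library per treatment was sequenced, so that 3 libraries make up the whole series. No replicate stands behind any value, no test between treatments is possible, and no p-value is given. No interferon was added in any group, so all values describe the interferon-related genes without interferon stimulation in 1 cell line.

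Interferons bind receptors on the cell surface, and JAK kinases then activate STAT proteins, which enter the nucleus with IRF9 and switch on interferon-stimulated genes through the interferon-stimulated response element (ISRE). The products of these genes sense or block viral RNA, modify other proteins with ISG15, and shape the proteasome and the peptide transport that supply MHC class I molecules. Fibroblasts express MHC class I and a low level of many interferon-stimulated genes without infection. TGF-β is known as an immunosuppressive cytokine.

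Expression is given as FPKM, the fragments assigned to a gene scaled to its exon length in kilobases and to 1000000 mapped fragments, which allows levels of different genes to be set side by side. Where 3 values are listed for a gene without further words, they are the FPKM in CTRL, GDF15 and TGF-β in this order. As the change of a gene, the difference of log2(FPKM + 1) between 2 libraries was taken, a scale on which changes at low FPKM come out too small. A gene is counted as over 2-fold when its absolute change exceeds 1. Because most changes of the 39 genes were smaller, each change was also read against a local spread. It was calculated as a scaled median absolute deviation of changes over the row itself and the 500 rows nearest in mean expression. A gene is called lower or higher when its change, less the median of those rows, exceeds 2 local spreads. This rule was applied where the mean FPKM over the libraries reached 1, as it did for 9226 of all rows and 30 of the 39 genes. The local spread describes the scatter between genes of 2 libraries and does not replace a replicate error. The depth, estimated from the steps of single fragments in low values, was 18.6 (CTRL), 21.7 (GDF15) and 17.8 (TGF-β) times 1000000 fragments. Intervals of fold changes given below are 95% intervals from these estimated fragments and cover counting error only. All 9 fibroblast markers had an FPKM of at least 34.7 in each library. Of 9 leukocyte markers 3 reached an FPKM of 1 in any library, with a highest value of 6.20, and these were the myeloid markers *Lyz2* (5.29, 6.20 and 4.13), *Cd14* (5.66, 4.99 and 5.11) and *Cd68* (1.66, 1.14 and 1.67). *Emr1*, a macrophage marker, was listed at 0 in all libraries. The sum of the leukocyte markers was 12.8 in CTRL, 12.6 under GDF15 and 11.1 under TGF-β, and their part in the changes below was not tested. None of the 5 endothelial and 6 epithelial markers reached an FPKM of 1.

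Interferon and NF-κB are known to act on many such genes through short elements in their promoters. RefSeq promoters (GRCm38.p6, 250 bases before to 50 bases after the start) were matched for 33 of the 39 genes. GAAA followed by any 2 bases and again GAAA, the core of an ISRE, was found on either strand in the promoters of 15 of the 33 genes (45.5%), against 3.99% of the 27025 genes in the promoter table. TTCNNNGAA, the core of a gamma-activated site (GAS), was found in 9 genes (27.3%, against 9.55%), and GGG, any 2 bases, TT, any base and CC, an NF-κB-like site, in 5 genes (15.2%, against 5.48%). Both strands were searched, and ISRE and GAS matches overlap in the promoters of *Bst2* and *Ifitm3*. A match describes the letters only and is neither a site nor a cause. The windows below lie wholly before the RefSeq start site and are written 5′ to 3′ on the strand of the gene, with the motif in capitals (*Isg15* and *H2-K1* lie on the minus strand and the other genes shown on the plus strand). They are shown because *Ifit3*, *Gbp2* and *Irf1* were called lower in TGF-β, and because *Ifit1*, *Isg15* and *Stat2* hold an ISRE core as well.
Ifit3 ISRE, chr19:34583353-34583436: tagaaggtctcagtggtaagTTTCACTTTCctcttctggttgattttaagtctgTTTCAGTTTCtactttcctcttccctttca
Gbp2 ISRE, chr3:142620584-142620633: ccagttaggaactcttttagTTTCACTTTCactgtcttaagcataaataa
Ifit1 ISRE, chr19:34640765-34640833: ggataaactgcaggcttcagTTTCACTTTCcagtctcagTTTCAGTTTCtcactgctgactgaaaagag
Isg15 ISRE, chr4:156200855-156200916: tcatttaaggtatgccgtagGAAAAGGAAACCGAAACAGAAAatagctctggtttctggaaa
Stat2 ISRE, chr10:128270256-128270305: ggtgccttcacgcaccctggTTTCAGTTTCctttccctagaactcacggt
Irf1 GAS, chr11:53769904-53769952: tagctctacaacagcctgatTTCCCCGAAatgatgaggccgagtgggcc

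For the MHC class I genes, the windows show how much sequence the classical heavy chain genes share before their RefSeq start sites. The windows of *H2-K1* and *H2-D1* are identical at 49 of 50 positions. *B2m*, which encodes the light chain, holds an ISRE core close to an NF-κB-like site.
H2-K1 NF-κB-like site, chr17:34000429-34000478: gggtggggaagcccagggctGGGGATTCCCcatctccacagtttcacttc
H2-D1 NF-κB-like site, chr17:35262903-35262952: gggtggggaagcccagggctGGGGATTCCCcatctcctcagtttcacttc
B2m ISRE, chr2:122147528-122147577: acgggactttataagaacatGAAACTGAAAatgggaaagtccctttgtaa

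The levels of the 39 genes in CTRL spanned more than the range between an abundant and a barely detected transcript. *B2m* was the most abundant, with rank 56 of all rows in CTRL, followed by *Ifitm2* at rank 110 and *Ifitm3* at rank 224. These encode the light chain of MHC class I and small membrane proteins that restrict virus entry. In contrast, 9 genes had a mean FPKM below 1, namely *Ifit1*, *Mx1*, *Mx2*, *Rsad2*, *Dhx58*, *Ifih1*, *Parp14*, *Usp18* and *Psmb8*. *Rsad2*, the gene of the antiviral enzyme viperin, was listed at 0 in all 3 libraries. The type I interferon gene *Ifnb1* and the type II gene *Ifng* were both listed at 0 in CTRL and GDF15, and *Ifnb1* was listed at 0.0989 in TGF-β, an estimated 0.968 fragments.

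**Figure D1:**
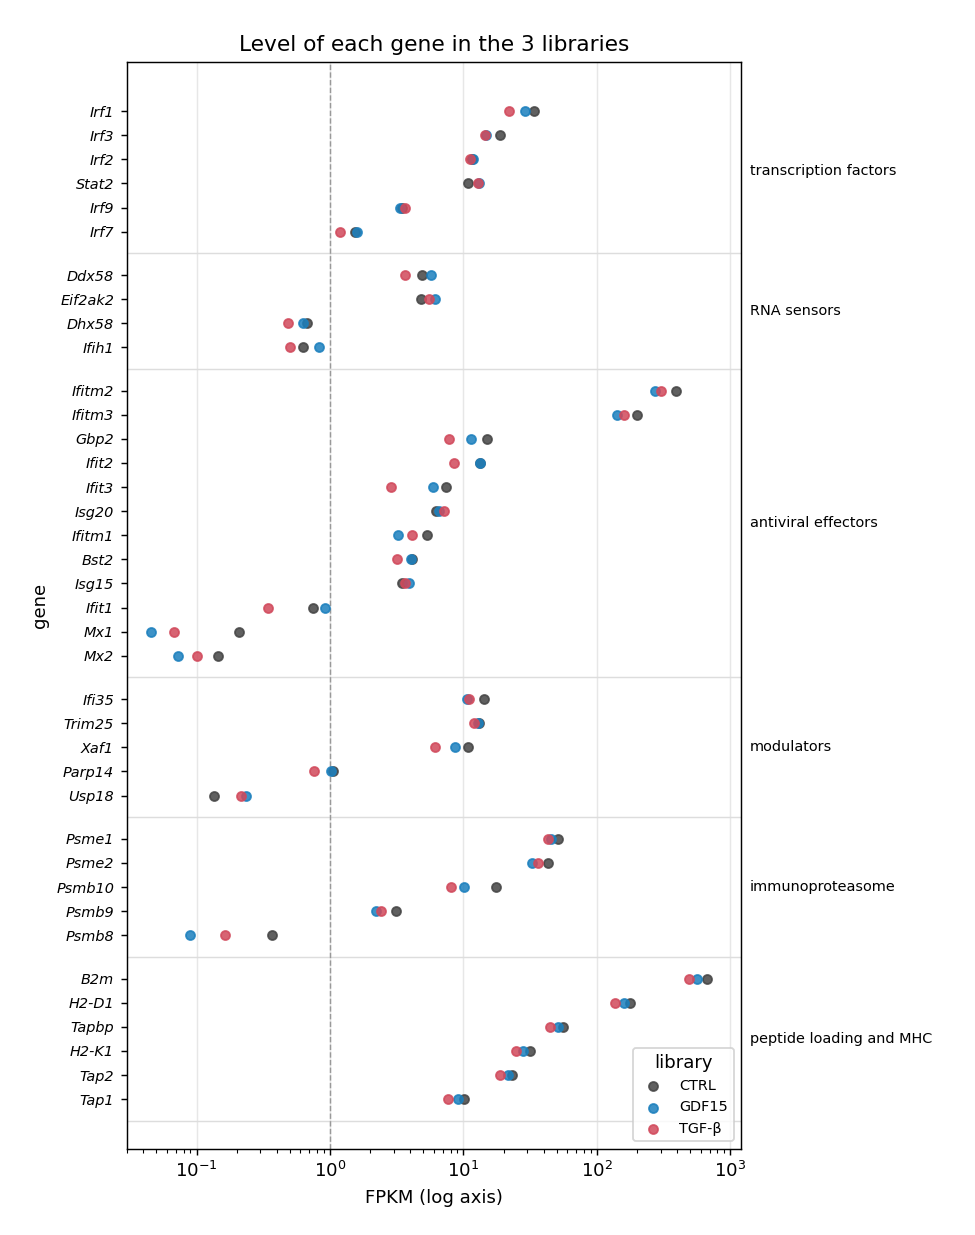
Level of each gene with an FPKM above 0 in CTRL (grey), GDF15 (blue) and TGF-β (red), on a log axis of FPKM and grouped by role, with 1 point per library and a dashed line at an FPKM of 1. The TGF-β point is the lowest for each gene of the peptide loading and MHC group, whose CTRL values range from 10.1 (*Tap1*) to 662.5 (*B2m*).

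Compared with CTRL, most of the expressed genes were lower in both stimulated libraries, by a moderate amount. In TGF-β, 25 of the 30 genes were lower than in CTRL (83.3%) and 5 were higher, with a median of -0.32. Of all rows past the filter 62.8% were lower and 37.2% higher, and their median was -0.07. In GDF15, 23 of the 30 were lower (76.7%, against 55.6% of all rows) and 7 higher (against 44.4%), with a median of -0.17 against -0.03. Less the trend of changes with transcript length, described at the end, the medians were -0.17 in TGF-β and -0.09 in GDF15, with 24 and 19 of the 30 lower. Both comparisons share the CTRL library, so their directions are not independent. Past the 2-fold criterion were 2 genes in TGF-β, *Ifit3* and *Psmb10*, both lower, where 0.334% of all rows were lower and 0.579% higher by over 2-fold (0.913% in either direction). Less the length trend *Psmb10* had a change of -0.86 and was no longer past this criterion. With GDF15, 0 of the 39 genes were over 2-fold, against 0.289% of all rows in either direction (0.212% higher and 0.0772% lower). By the rule of 2 local spreads, 6 of the 30 genes were lower in TGF-β (*Gbp2*, *Ifit2*, *Ifit3*, *Irf1*, *Psmb10* and *Xaf1*), which is 20%, against 4.34% of all rows. In GDF15, 2 of the 30 were called lower (*Ifitm1* and *Psmb10*), which is 6.67%, against 3.24% of all rows. No gene of the 30 was called higher by either stimulus, where 5.58% of all rows were called higher by TGF-β and 3.57% by GDF15. The 3 largest decreases in TGF-β among the 30 were those of *Ifit3*, *Psmb10* and *Gbp2*, with changes of -1.13, -1.02 and -0.85.

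**Figure D2:**
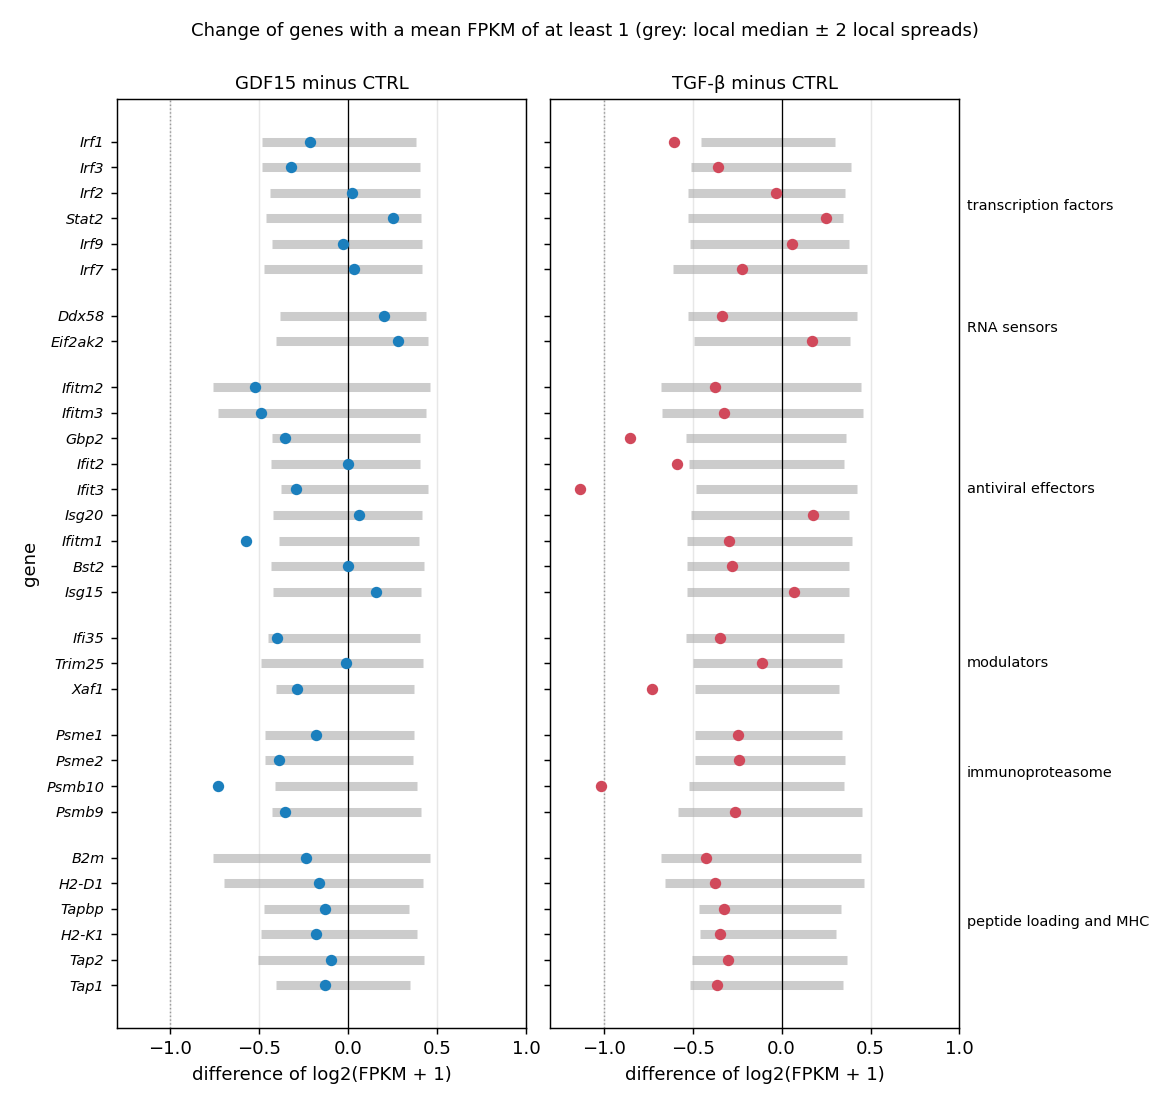
Difference of log2(FPKM + 1) from CTRL for the 30 genes whose mean FPKM reached 1, in GDF15 (left) and TGF-β (right). Grey bars show the local median ± 2 local spreads of rows of similar expression, and the dotted line marks a 2-fold decrease; 6 genes lie to the left of their bar in TGF-β and 2 in GDF15.

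Among the transcription factors, *Irf1* was the gene called lower in TGF-β, and the subunits of the interferon-activated complex were not called. *Irf1*, an activator of MHC class I, immunoproteasome and other interferon-gamma responsive genes, had an FPKM of 33.6 in CTRL, 28.8 under GDF15 and 21.8 under TGF-β. The level thus stepped down from CTRL to GDF15 to TGF-β, and the TGF-β library was at 0.648 of CTRL (interval 0.591 to 0.710) with a change of -0.60, which lies -2.80 local spreads from the local median. In GDF15 *Irf1* was at 0.857 of CTRL and -0.76 spreads from the local median. *Stat2*, a STAT subunit of the complex that binds the ISRE, went the other way, with 10.7 in CTRL, 13.0 under GDF15 and 12.9 under TGF-β. Both stimulated libraries lay above CTRL by 1.21 and 1.20 times, within 2 local spreads. *Irf9*, the DNA-binding subunit of the same complex, had 3.47, 3.37 and 3.65, and *Irf2*, which competes with IRF1 for its sites, had 11.6, 11.8 and 11.3 in CTRL, GDF15 and TGF-β. The intervals of all folds of both genes include 1, so that no difference was detectable at this depth. *Irf3*, the factor that turns RNA sensing into interferon production, had 18.7 in CTRL and similar values of 14.8 and 14.4 in GDF15 and TGF-β. *Irf7*, which amplifies this production and is itself interferon-induced, was near the limit of the filter with 1.55, 1.60 and 1.18.

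Against CTRL the sensors of viral RNA did not share a direction. All 4 had lower values in TGF-β than in GDF15, as had 60.3% of all rows past the filter, which *Ifih1* and *Dhx58* did not pass. The intervals of the folds of TGF-β against GDF15 lie below 1 for *Ddx58* and *Ifih1* but include 1 for *Eif2ak2* and *Dhx58*. *Ddx58*, which encodes RIG-I, had an FPKM of 4.88 in CTRL, 5.75 under GDF15 and 3.66 under TGF-β. GDF15 was the highest library and TGF-β the lowest, at 1.18 and 0.751 of CTRL, each within 2 local spreads of the local median. *Ifih1*, which encodes the related sensor MDA5, was at 0.633, 0.827 and 0.499, and the intervals of its folds against CTRL include 1. *Eif2ak2*, the gene of the kinase PKR that stops translation on double-stranded RNA, had 4.83, 6.08 and 5.55, and the interval of its fold lies above 1 in GDF15 (1.10 to 1.44) but includes 1 in TGF-β (0.997 to 1.33). *Dhx58*, which encodes the regulator LGP2, was at 0.677, 0.622 and 0.482, with 27.9 estimated fragments in CTRL, and the intervals of its folds against CTRL include 1.

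The antiviral effectors included 3 of the 6 genes called lower in TGF-β, *Ifit3*, *Gbp2* and *Ifit2*, together with genes near CTRL. The *Ifit* genes encode RNA-binding proteins that block translation of viral RNA, and lie in a cluster on chromosome 19 (GRCm38, *Ifit2* at 34550694 to 34576419, *Ifit3* at 34583531 to 34588731 and *Ifit1* at 34640871 to 34650009). *Ifit3* had an FPKM of 7.43 in CTRL, 5.88 under GDF15 and 2.84 under TGF-β. TGF-β was at 0.382 of CTRL (interval 0.291 to 0.497), a change of -1.13 that lies -4.90 local spreads from the local median, whereas GDF15 was at 0.792 (0.651 to 0.967). Of the 50-base windows of the *Ifit3* transcript, 51.2% occur also in *Ifit3b*, so that reads of both genes could not all be told apart. *Ifit2*, with no such shared window, had 13.3 in CTRL, 13.3 under GDF15 and 8.54 under TGF-β. Here GDF15 was at 0.998 of CTRL and TGF-β was called lower, at 0.641 of CTRL (0.575 to 0.714), a change of -0.59. *Ifit1* was at 0.746, 0.913 and 0.345, and its fold in TGF-β of 0.463 rests on an estimated 15.1 fragments against 34.2 in CTRL (0.234 to 0.872).

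*Gbp2*, a guanylate-binding protein gene induced by interferon-gamma on chromosome 3 (142620602 to 142638008), was at 14.9 in CTRL, 11.4 under GDF15 and 7.83 under TGF-β. The libraries were again ordered CTRL, GDF15, TGF-β, with GDF15 at 0.766 (0.683 to 0.858) and TGF-β at 0.525 (0.458 to 0.601) of CTRL. Changes were -0.36 and -0.85, which lie -1.67 and -3.38 local spreads from the local median. The *Ifitm* genes on chromosome 7 had another order, in which GDF15 was the lowest library by FPKM. Less the length trend, TGF-β and GDF15 were nearly level for *Ifitm2* and *Ifitm3*, with differences of -0.02 and 0.01. *Ifitm1* had 5.31, 3.25 and 4.15 and was called lower in GDF15, with a change of -0.57. Less the length trend this change was -0.28 and no longer called (-1.53 local spreads). *Ifitm2* had 392.1 in CTRL, 272.2 under GDF15 and 301.9 under TGF-β, and *Ifitm3* had 198.5, 140.9 and 158.5. The transcripts of these 3 genes are short, from 655 to 882 bases, and 48.5% of the windows of *Ifitm2* are shared with other annotated transcripts. *Bst2*, the gene of tetherin, which holds budding virus at the cell surface, was at 4.08, 4.07 and 3.19. *Isg15*, the ubiquitin-like modifier and one of the most inducible of interferon-stimulated genes, was at 3.43, 3.94 and 3.65. *Isg20*, which encodes an RNA exonuclease, was at 6.25, 6.56 and 7.19 and was the only gene of the 30 whose level stepped up from CTRL to GDF15 to TGF-β. For *Bst2*, *Isg15* and *Isg20* the intervals of all folds include 1. With a trend for length and GC content removed, they were called higher in GDF15 than in CTRL (2.13, 2.90 and 2.41 local spreads). *Mx1* had an FPKM of 0.206, 0.0459 and 0.0674, which stands for an estimated 12.3, 3.18 and 3.82 fragments, and *Mx2* had 0.145, 0.0723 and 0.101. The Mx genes encode dynamin-like GTPases against viruses, and counts this low leave their folds open over a wide range (*Mx1* in GDF15 0.222, interval 0.0388 to 0.794).

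The modulators of the response included 1 gene called lower in TGF-β. *Xaf1*, an interferon-induced gene that promotes apoptosis, had an FPKM of 10.8 in CTRL, 8.67 under GDF15 and 6.12 under TGF-β. It followed the order of *Gbp2*, at 0.804 and 0.567 (0.486 to 0.661) of CTRL, with a change of -0.73 in TGF-β, which lies -3.19 local spreads from the local median. *Ifi35*, an interferon-induced leucine zipper protein gene, had 14.2, 10.5 and 11.0, so that both stimulated libraries lay below CTRL at similar levels. *Trim25*, the ubiquitin ligase that activates RIG-I, varied little, with 13.1, 13.0 and 12.1. *Parp14*, a mono-ADP-ribosyltransferase gene, was at 1.05, 1.02 and 0.763. *Usp18*, which encodes the protease that removes ISG15 and dampens receptor signaling, was at 0.136, 0.234 and 0.214, an estimated 3.99, 7.99 and 5.99 fragments, and no order can be read from these counts.

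**Figure D3:**
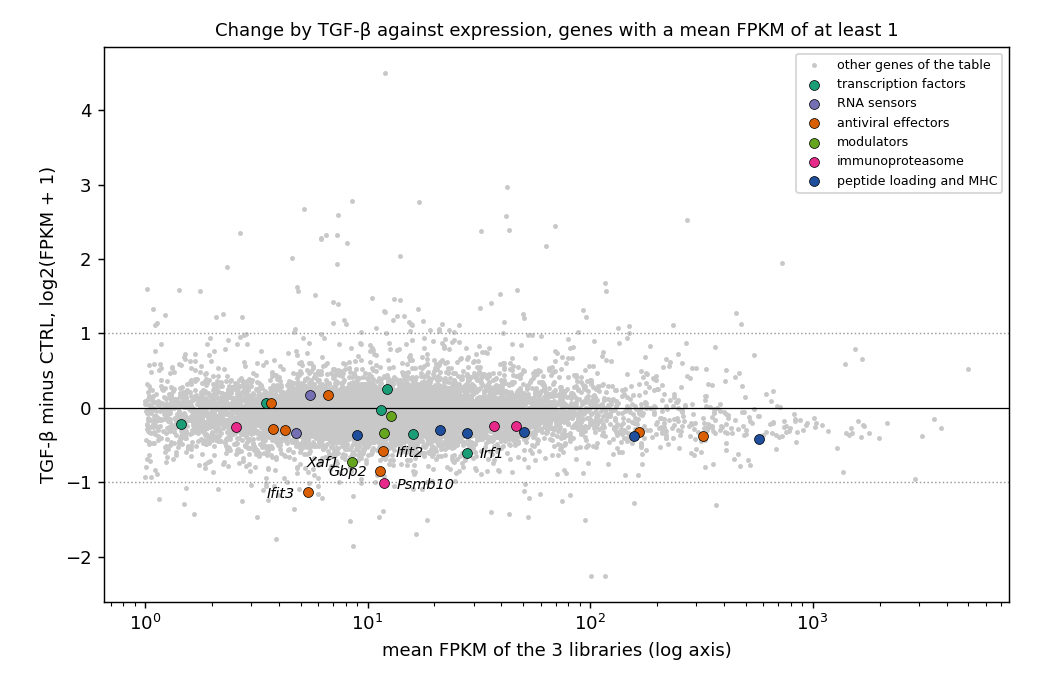
Difference of log2(FPKM + 1) between TGF-β and CTRL against mean FPKM on a log axis, for rows with a mean FPKM of at least 1 (grey) and the 30 genes colored by role. The 6 named genes were called lower by 2 local spreads, and *Ifit3* and *Psmb10* lie below the dotted line of a 2-fold decrease.

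All 5 immunoproteasome genes had lower values in both stimulated libraries than in CTRL, and *Psmb10* was the one called lower. Of all rows past the filter, 55.6% were lower in GDF15 and 62.8% in TGF-β. Less the length trend *Psme1* had a change of 0.06 in GDF15. The immunoproteasome replaces the catalytic subunits of the standard proteasome (PSMB5, PSMB6 and PSMB7) by PSMB8, PSMB9 and PSMB10, which favors peptides that fit MHC class I. *Psmb10* lies on chromosome 8 (105935735 to 105938444, minus strand), and its FPKM was 17.4 in CTRL, 10.1 under GDF15 and 8.09 under TGF-β. Both stimulated libraries were well below CTRL, at 0.578 (0.490 to 0.683) and 0.465 (0.384 to 0.563). The changes of -0.73 and -1.02 lie -3.61 and -4.26 local spreads from the local median, and no 50-base window of its transcript was shared with another gene. *Psmb10* was the only gene of the 30 called lower in both comparisons, which share CTRL, except that *Gbp2* was as well with a trend for length and GC content removed. *Psmb9* was at 3.10, 2.21 and 2.42, and *Psmb8* at 0.367, 0.0899 and 0.165, an estimated 9.77, 2.79 and 4.19 fragments. The interval of the *Psmb9* fold includes 1 in both comparisons. The activator subunits *Psme1* and *Psme2*, which open the proteasome core, were more abundant. *Psme1* had 51.4, 45.3 and 43.2, and *Psme2* had 42.7, 32.5 and 36.1, with 59.3% of the windows of *Psme2* shared with *Psme2b* and a further transcript.

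The standard counterparts of these subunits were not called in either comparison with CTRL. *Psmb7*, which PSMB10 replaces, had an FPKM of 74.4 in CTRL, 68.3 under GDF15 and 71.3 under TGF-β. Within each library *Psmb10* therefore amounted to 23.4% of *Psmb7* in CTRL, 14.7% under GDF15 and 11.3% under TGF-β. *Psmb5* had 58.5, 49.0 and 60.9, and *Psmb6* had 82.1, 74.6 and 73.7. The ratio of *Psmb9* to *Psmb6* moved less, from 3.78% to 2.96% and 3.28%, and the ratio of *Psmb8* to *Psmb5* was below 1% in each library. Of 17 genes of the standard proteasome core, with its activators *Psme3* and *Psme4* and the assembly factor *Pomp*, 0 were called lower or higher against CTRL by either stimulus, and their median change was -0.17 in GDF15 and -0.05 in TGF-β (15 and 12 of the 17 lower). Less the trend with transcript length the medians were 0.04 and 0.08, with 6 of the 17 lower in each. Between both stimulated libraries, 3 of the 17 were called higher in TGF-β than in GDF15, against 5.38% of all rows. These were *Psmb5*, *Psma3* (24.2, 21.1 and 25.5) and *Psmb3* (59.2, 49.9 and 61.3). Their changes of 0.31, 0.26 and 0.29 were 0.20, 0.30 and 0.15 less the length trend.

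**Figure D4:**
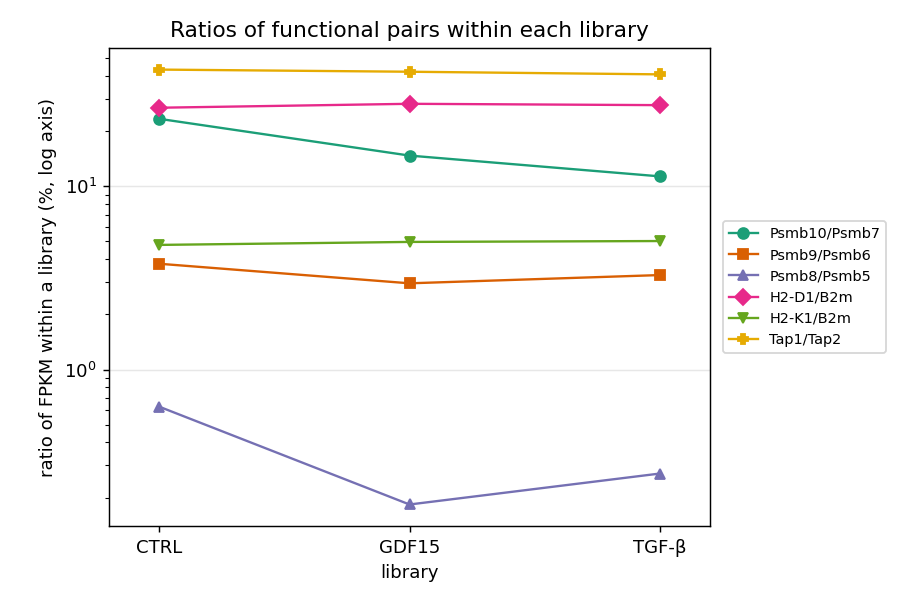
Ratio of FPKM of functional pairs within each library, in percent on a log axis. A difference in library scale cancels, but the trend with transcript length does not. *Psmb10* relative to *Psmb7* goes from 23.4% in CTRL to 11.3% in TGF-β, whereas *H2-D1* relative to *B2m* stays between 26.8% and 28.2%.

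The genes of peptide loading and MHC class I had changes of similar size in TGF-β, and by FPKM all 6 genes were ordered CTRL, GDF15, TGF-β from high to low, against 29.6% of all rows. Less the length trend *B2m* had a change of 0.06 in GDF15 and left this order. None of the 6 was called by 2 local spreads. *B2m*, the light chain, had an FPKM of 662.5 in CTRL, 561.7 under GDF15 and 493.0 under TGF-β. Its folds were 0.848 and 0.744, and with 5793 or more estimated fragments in each library, counting error was small beside them (0.719 to 0.770 in TGF-β). The heavy chain gene *H2-D1* had 177.9, 158.4 and 136.7, and *H2-K1* had 31.7, 27.9 and 24.8. Relative to *B2m* by FPKM, both heavy chains stayed level, *H2-D1* at 26.8%, 28.2% and 27.7% and *H2-K1* at 4.79%, 4.97% and 5.03%. These ratios are not adjusted for the length trend. Less this trend the changes in GDF15 were 0.06 (*B2m*), -0.07 (*H2-D1*) and -0.03 (*H2-K1*). Reads of heavy chain genes can be shared or lost, because 14.3% and 8.79% of the windows of *H2-D1* and *H2-K1* occur in other genes, and because MHC genes differ between mouse strains while the alignment used the reference genome. *Tapbp*, which encodes tapasin and bridges MHC class I to the peptide transporter, had 55.7, 50.7 and 44.4. The transporter subunits had 10.1, 9.13 and 7.63 (*Tap1*) and 23.2, 21.6 and 18.7 (*Tap2*). Across the 6 genes, TGF-β was at 0.744 to 0.803 of CTRL and GDF15 at 0.848 to 0.931, so that the range between genes was narrower than the distance of TGF-β from CTRL. The intervals of the folds lie below 1 for all 6 genes in TGF-β, and in GDF15 those of *Tap1* and *Tap2* include 1. Of the windows of *Tapbp* and *Tap2*, 20% and 12.6% are antisense to other transcripts. *Tap1* and *Psmb9* lie head to head on chromosome 17 (34187553 to 34197225 and 34181987 to 34187764) and 12.5% of the windows of *Psmb9* are antisense to *Tap1*. The strand setting of the counting is not given in the sources used here, and part of the *Psmb9* value could be reads of *Tap1*.

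A list of 148 further genes of these pathways was also followed, of which 122 are in the table and 87 had a mean FPKM of at least 1. In TGF-β, 61 of the 87 were lower than CTRL and 26 higher, with a median of -0.10 (62.8% of all rows were lower, with a median of -0.07). By the rule of 2 local spreads 6 of the 87 were lower and 1 higher in TGF-β, against 4.34% and 5.58% of all rows. Over 2-fold were 2, *Socs1* and *H2-T23*, against 0.913% of all rows. Less the length trend 45 of the 87 were lower in TGF-β, with a median of -0.01. *Socs1*, the feedback inhibitor of JAK kinases and itself a target of interferon, had an FPKM of 13.0 in CTRL, 7.80 under GDF15 and 5.13 under TGF-β. It stepped down in the same order as *Irf1* and *Gbp2*, by -0.67 and -1.19, and was called lower in both comparisons. *H2-T23*, which encodes the nonclassical MHC class I molecule Qa-1, had 8.89, 5.72 and 3.45 and was also called lower in both, with changes of -0.56 and -1.15. The other genes called lower in TGF-β were *H2-Q7* (2.52, 2.11 and 1.13), a further nonclassical MHC class I gene, *Ticam1* (10.9, 9.03 and 7.12), the adaptor of TLR3, *Ifi203* (4.61, 3.65 and 2.86) and *Irf5* (2.04, 1.13 and 0.962), which was called lower in GDF15 too. *Lnpep*, an aminopeptidase that can trim peptides outside the endoplasmic reticulum, was the gene called higher, with 22.3 in CTRL, 33.1 under GDF15 and 29.8 under TGF-β. The receptor genes were not called, with 6.24, 6.19 and 5.95 for *Ifnar1*, 18.5, 17.6 and 14.0 for *Ifnar2* and 23.5, 26.1 and 26.4 for *Ifngr1*. Of 28 other interferon-stimulated genes past the filter, 24 were lower in TGF-β than in CTRL and 17 in GDF15, with medians of -0.13 and -0.05 (62.8% and 55.6% of all rows were lower). Less the length trend 16 and 13 of the 28 were lower, with medians of -0.08 and 0.02.

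Compared directly, the TGF-β library was lower than the GDF15 library for 22 of the 30 genes (73.3%, against 60.3% of all rows) and higher for 8 (against 39.7%), with a median of -0.14 against -0.04. No gene of the 39 was over 2-fold, where 0.103% of all rows were (0.0836% higher and 0.0193% lower). Under the rule of 2 local spreads, TGF-β was lower than GDF15 for 6 of the 30 genes (20%, against 3.78% of all rows) and higher for 0 (against 5.38%). The 6 genes were *Ddx58*, *Gbp2*, *Ifit2*, *Ifit3*, *Irf1* and *Xaf1*, and 5 of them were also called lower in TGF-β than in CTRL, a comparison that uses the same TGF-β library. *Psmb10*, by contrast, was at 0.805 of GDF15 (interval 0.655 to 0.987) and was not called, though it was less the length trend, as were *B2m* and *Bst2*. The order CTRL, GDF15, TGF-β from high to low held for 16 of the 30 genes (53.3%, against 29.6% of all rows), and the reverse order for 1 (3.33%, against 13.7%). GDF15 was the highest library for 6 of the 30 genes and the lowest for 7, which is 20% and 23.3%, against 30.7% and 26% of all rows.

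Genes with and without a match to the ISRE core in the promoter window were set side by side, with no test between them. A gene without an exact match, such as *H2-K1* or *H2-D1*, can still hold a variant of the motif. Of the 15 genes with the motif, 12 passed the filter on mean FPKM, and their median change by TGF-β was -0.30 with 9 lower. Of the other 18 genes with a promoter, 17 passed the same filter, and their median was -0.34 with 15 lower. In GDF15 the medians were -0.09 with and -0.18 without the motif. Less the length trend they were -0.09 and -0.21 in TGF-β, and 0.07 and -0.09 in GDF15, so that the genes with the motif had the smaller decrease or a positive median. Both *Ifit3*, which had a decrease over 2-fold, and *Isg15*, whose level was near CTRL, hold ISRE cores in the windows given above. *Psmb10* and *Xaf1* hold none of the 3 motifs in the promoter window.

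Transcript length moved with the changes, and the transcripts of these genes were shorter than those of the table. The counts less this trend follow. For rows with transcripts of up to 1000 bases the median change was -0.34 in GDF15 and -0.21 in TGF-β, and for those over 8000 bases it was 0.17 and 0.05. The median length was 2067 bases for the 30 genes and 3139 bases for all rows with a mean FPKM of at least 1. Less the trend with length, 19 of the 30 genes were lower in GDF15 (63.3%, against 49.5% of all rows) with a median of -0.09, and 24 in TGF-β (80%, against 49.7%) with a median of -0.17. Between TGF-β and GDF15, 22 were lower (against 50.1%). After this step *Isg15* was called higher in GDF15, on an estimated 35.6 fragments in CTRL and 47.7 in GDF15. The interval of its fold before this step was 0.727 to 1.81. The 6 genes called lower in TGF-β against CTRL were called again. The group of peptide loading and MHC genes had a median of -0.08 in GDF15 and -0.24 in TGF-β after this step. All 6 stayed lower in TGF-β, but 5 of 6 in GDF15, where *B2m* had a change of 0.06. *Psmb10* kept changes of -0.54 and -0.86 in GDF15 and TGF-β, whereas *Ifitm2* and *Ifitm3* were left with changes of -0.16 and -0.13 in GDF15. Their differences between TGF-β and GDF15 were then -0.02 and 0.01. The 4 immunoproteasome genes past the filter had medians of -0.14 in GDF15 and -0.09 in TGF-β after this step, from -0.37 and -0.26, with 3 lower in GDF15, where *Psme1* had a change of 0.06, and 4 in TGF-β.

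**Figure D5:**
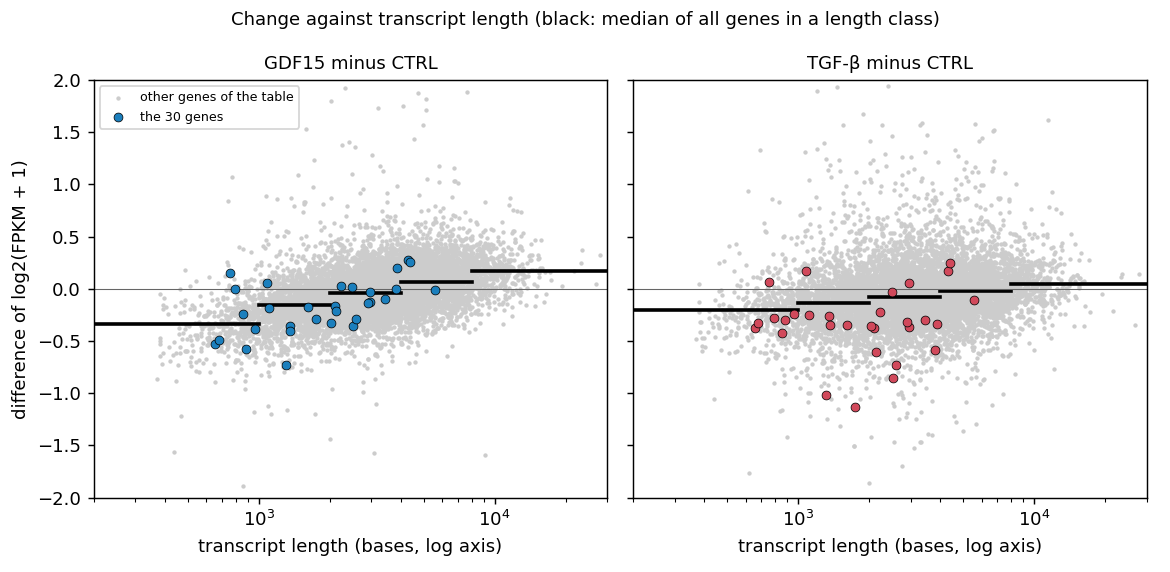
Difference of log2(FPKM + 1) from CTRL against the length of the longest coding transcript (log axis), for GDF15 (left) and TGF-β (right), with rows of a mean FPKM of at least 1 in grey, the 30 genes in color and the median of each length class as a black line. The medians of the length classes run from -0.34 to 0.17 in GDF15 and from -0.21 to 0.05 in TGF-β; values beyond ±2 are not drawn.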

How the data were processed

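Libraries were made by the authors with a stranded mRNA kit from RNA pooled within each treatment and sequenced as 50-base single-end reads. The authors computed FPKM per gene in Cufflinks, kept protein coding genes that UniProt lists as reviewed, and deposited these values without counts. The submitters' processing notes name TopHat 1.3.2, Bowtie 0.12.9, Cufflinks 2.0.2 and mm10; the gene annotation and the strand setting of the counting are not given in the sources used here. Columns were matched to samples by the treatment in their names.

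The members and lists were chosen with earlier results of these data known. Members with a mean FPKM of at least 1 were named with their values, as were pathway genes over 2-fold or over 2 local spreads, the standard proteasome counterparts and the receptors. Of the pathway genes called only between both stimulated libraries, *Mr1*, *Psma3*, *Psmb3*, *Psmb5* and 1 gene that is not reported here passed this rule. A pseudocount of 1 was added before log2. The scale of the median absolute deviation was 1.4826. Lengths and coordinates are from GENCODE M21 (GRCm38, the assembly of mm10), with 15474 of the 15554 rows matched, 749 by an older symbol. Depth was estimated from single-transcript genes, whose low FPKM times length less 199 bases cluster at whole fragments (72.2% to 73.0% within 0.15 of a whole number). Length trends were fitted by lowess (fraction 0.3). The steps were tested on simulated data. Alternatives were pseudocounts of 0.5, 0.1 and none, a filter at a mean FPKM of 5, upper quartile scaling of the libraries, and changes less the running median, less the length trend or less a trend with length and GC content. Leaving out genes that share over 10% of their windows was added after seeing the data. Calculations were run in Python 3.11.15 (statsmodels 0.14.6, scipy 1.17.1, pandas 2.3.3, numpy 2.4.6, matplotlib 3.10.9).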

Additional observations from a re-analysis of the deposited data

How the results depend on the processing

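No paired analysis was possible because 1 pooled library stands for each treatment, which also leaves none that could be omitted. Of 162 counts and medians under the alternatives, 138 stayed within a factor of 1.5 (counts) or within 0.1 (medians). No median changed its sign, and a reversal was not defined for counts. Of 771 changes of single genes, 748 stayed within the local spread and 0 called changes reversed. The filter at a mean FPKM of 5 and the omission of genes with shared windows only leave genes out. Their 69 and 72 changes therefore stayed the same by construction. The 6 genes called lower in TGF-β had changes of -1.39 to -1 (*Ifit3*), -1.10 to -0.82 (*Psmb10*), -0.93 to -0.76 (*Gbp2*), -0.82 to -0.64 (*Xaf1*), -0.64 to -0.50 (*Ifit2*) and -0.63 to -0.48 (*Irf1*), over 9 alternatives each and 8 for *Ifit3*, which is not among the genes without shared windows.

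The cause of the shifts below was not tested. The number of genes over 2-fold moved with the pseudocount: at 0.1 it was 2 in GDF15 and 2 between TGF-β and GDF15, and without a pseudocount it was 3 in GDF15, 5 in TGF-β and 2 between TGF-β and GDF15. In TGF-β it was 1 with a common upper quartile, with the running median removed, with the length trend or the length and GC trend removed, and without genes of shared windows. With a minimum mean FPKM of 5, which leaves 23 genes, 1 was called lower in GDF15 (*Psmb10*, since *Ifitm1* falls under the minimum), and the numbers higher were 4 in GDF15, 3 in TGF-β and 5 in TGF-β against GDF15. With the length trend removed, 1 gene was called lower (*Psmb10*, no longer *Ifitm1*) and 1 higher (*Isg15*) in GDF15, 11 were higher in GDF15 than in CTRL at any size, 9 were called lower in TGF-β than in GDF15, and the median in TGF-β was -0.17. With the length and GC trend removed, 2 were called lower in GDF15 (*Gbp2* and *Psmb10*), 3 were called higher in GDF15 (*Bst2*, *Isg15* and *Isg20*) and 1 in TGF-β (*Isg20*), 12 were higher in GDF15 at any size, and the medians were -0.04 in GDF15 and -0.15 in TGF-β. Without genes of shared windows, 5 were higher in TGF-β than in GDF15.

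Depth limits the genes below an FPKM of 1, where *Mx1*, *Mx2*, *Psmb8* and *Usp18* rest on few fragments.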

Other observations

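Many of the antigen presentation genes lie in the H-2 complex on chromosome 17, and the other genes of that region were looked at after these values were seen. Between *Tapbp* and *H2-T23* (GRCm38, 33915899 to 36032855), 74 rows had a mean FPKM of at least 1. The 10 listed antigen presentation genes all had lower values in TGF-β, and their median change from CTRL was -0.35. Of the others, 53 of 64 were lower as well, with a median of -0.20. In GDF15 the medians were -0.16 and -0.17, with all 10 and 56 of the 64 lower. In the direct comparison of TGF-β with GDF15, 9 of the 10 were lower with a median of -0.21, whereas 30 of the 64 others were lower with a median of 0.01. The other genes include *H2-DMb1*, a class II peptide loading gene outside the lists, with an FPKM of 7.36, 5.36 and 5.75. No test of the difference was possible.

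The chaperones that fold MHC class I heavy chains, and many other secreted proteins, differed from the peptide loading genes in direction. *Calr* (calreticulin) was at 306.7 in CTRL, 373.1 under GDF15 and 380.9 under TGF-β. *Canx* (calnexin) had 161.4, 208.1 and 211.1, and *Pdia3*, the disulfide isomerase of the peptide loading complex, had 282.9, 377.8 and 354.0. None of the 3 was called by 2 local spreads. *Nlrc5*, the transactivator of MHC class I genes, had 2.62, 2.004 and 1.68 and was not called either.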
